A study of Mus musculus with 4 samples.

Results

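The S100 genes encode a family of small calcium-binding proteins. The gene set described here was named by symbol, with 9 members: S100a1, S100a4, S100a6, S100a8, S100a9, S100a10, S100a11, S100a13 and S100g. A member was read from every probe set whose platform annotation gave that single symbol. By that rule 8 of the 9 members were measured, by 11 probe sets of the 45101 on the array, among 18194 genes with such a probe set. S100a11 was the exception, because its probe set also carried the symbols of other genes (3 symbols in all), and it has no value here.

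The RNA came from flow-sorted mouse AEC2, or alveolar type II cells, which make surfactant and renew the alveolar epithelium. The 4 groups were TLR4-/- mice 4 days after bleomycin, wild-type mice 4 days after bleomycin, untreated TLR4-/- mice and untreated wild-type mice. Bleomycin is a drug that injures the lung epithelium, and TLR4 is a receptor of innate immunity. Each group was 1 Affymetrix 3' array of RNA from a pool of 4 to 5 mice. The sources used here do not give the design of the TLR4-/- allele, the strain, sex and age of the mice, the bleomycin dose or the sorting markers. All values below are deposited log2 signals, averaged over a gene's probe sets, or differences of them.

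S100 proteins form dimers that change shape on binding calcium and then attach to other proteins, many of them parts of the cytoskeleton or annexins. Several are also released from injured or activated cells and bind receptors such as the receptor for advanced glycation end products (Ager) and Tlr4. S100a8 and S100a9 together make calprotectin, which is abundant in neutrophils and monocytes. S100a10 is the unusual member that no longer binds calcium and is a partner of Anxa2. Of the 9 members, 8 lie on chromosome 3 in the RefSeq gene table, and S100g lies on the X chromosome. Among the S100 genes named in this report, S100a4 and S100a6 stand on either side of S100a5 along chromosome 3. S100a8 and S100a9 come next after S100a6 in that order. S100 genes not named here were not placed.

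The bases upstream of 4 members are shown because their genes are given in pairs below: S100a4 and S100a6, which had the largest differences after bleomycin, and S100a8 and S100a9, which encode the subunits of one complex. Each line gives the 250 bases before the RefSeq transcription start (GRCm38.p6), 5′ to 3′ in the direction of the gene. Capitals mark matches to the motifs searched on both strands: AP-1 (TGANTCA), C/EBP (TTGCNNAA), GAS (TTCNNNGAA), the GC box (GGGCGG) and the TATA box (TATAAA).

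S100a4, chr3:90603520-90603769, + strand: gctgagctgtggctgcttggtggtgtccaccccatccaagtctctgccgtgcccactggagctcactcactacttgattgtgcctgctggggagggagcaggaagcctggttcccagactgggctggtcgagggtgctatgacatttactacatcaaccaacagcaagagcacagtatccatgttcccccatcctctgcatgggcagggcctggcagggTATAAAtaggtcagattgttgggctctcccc
S100a6, chr3:90612644-90612893, + strand: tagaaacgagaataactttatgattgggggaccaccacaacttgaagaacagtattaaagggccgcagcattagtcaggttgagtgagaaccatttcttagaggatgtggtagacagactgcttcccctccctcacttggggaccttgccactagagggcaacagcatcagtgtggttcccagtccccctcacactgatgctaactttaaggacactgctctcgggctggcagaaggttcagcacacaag
S100a8, chr3:90668821-90669070, + strand: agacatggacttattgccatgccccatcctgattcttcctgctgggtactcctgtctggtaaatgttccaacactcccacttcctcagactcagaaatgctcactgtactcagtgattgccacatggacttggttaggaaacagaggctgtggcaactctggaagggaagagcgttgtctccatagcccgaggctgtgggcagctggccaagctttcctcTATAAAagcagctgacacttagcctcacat
S100a9, chr3:90695722-90695971, - strand: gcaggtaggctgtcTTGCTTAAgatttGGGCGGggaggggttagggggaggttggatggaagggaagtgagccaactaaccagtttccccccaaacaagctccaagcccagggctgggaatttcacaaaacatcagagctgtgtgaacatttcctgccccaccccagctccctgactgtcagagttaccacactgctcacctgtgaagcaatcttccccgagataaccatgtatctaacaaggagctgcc

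Windows of the same kind were given for 8 members in all. The TATA box letters began at position -31 in S100a4 and at -30 in S100a8, counting back from the transcription start, and 12.4% of all 32851 windows held them. S100a9 held the C/EBP letters (9.56% of windows) and the GC box (32.7%). None of the 5 motifs was in the windows of S100a6, S100a1 or S100a13. S100g held the C/EBP letters. S100a11 held AP-1 (6.75% of windows) and the GC box, and GAS (7.02%) was in 0 of the 8. No matches overlapped each other. The windows of S100a1 and S100a13, which are read in opposite directions, shared 104 bases. A match describes letters and is not evidence of binding.

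All 11 AEC2 markers on the array, of 12 listed, were above the filter used for testing. Their mean log2 signals were 12.43 in TLR4-/- and 12.60 in wild-type cells after bleomycin, against 12.63 in TLR4-/- and 12.71 in wild-type untreated cells. After bleomycin 1 of the 11 fell, Lgi3, a secreted protein gene (-0.69 ± 0.16, log2, SE), where 2.53% of all genes tested fell. That call ended without the filter. All 11 read lower in TLR4-/- than in wild-type cells after bleomycin, by 0.006 (Sftpc) to 0.54 (Etv5), as did 46.7% of all genes tested. Untreated, 7 of the 11 read lower in TLR4-/- cells, beside 37.8% of all genes tested. Tlr4 itself was read by 4 probe sets, and only 1418163_at separated the genotypes in the direction of the label. It read 6.39 in TLR4-/- and 9.07 in wild-type cells after bleomycin, and 7.24 in TLR4-/- and 8.87 in wild-type untreated cells. The other 3 read within 0.66 of wild type, 2 of them higher in TLR4-/- cells, and their place relative to the deleted part of the gene is unknown here.

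After bleomycin, S100a4 and S100a6 rose in the sorted cells of both genotypes. The other 6 measured members were not called. S100a4 ranked 7 of 9097 genes tested by the size of its rise. The fit was limma's additive model of treatment and genotype, 2 arrays after bleomycin against 2 untreated, on the 9097 genes whose mean exceeded the median of all genes (7.05). All 8 measured members passed that filter. By Benjamini-Hochberg adjusted p under 0.05, 2 of the 8 rose, where 7.18% of all genes tested rose, and 0 of the 8 fell, where 2.53% of all genes fell. At an unadjusted p under 0.05 the fit held 3 of the 8, S100g being the third, beside 2176 of all 9097 genes tested. The model has 1 residual degree of freedom per gene, and its error rests on how far the genotypes' responses differed, not on replicate pools. The SD that it implies for the difference of any 2 arrays, 0.23 on the log2 scale, is used below as the spread.

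**Figure D1:**
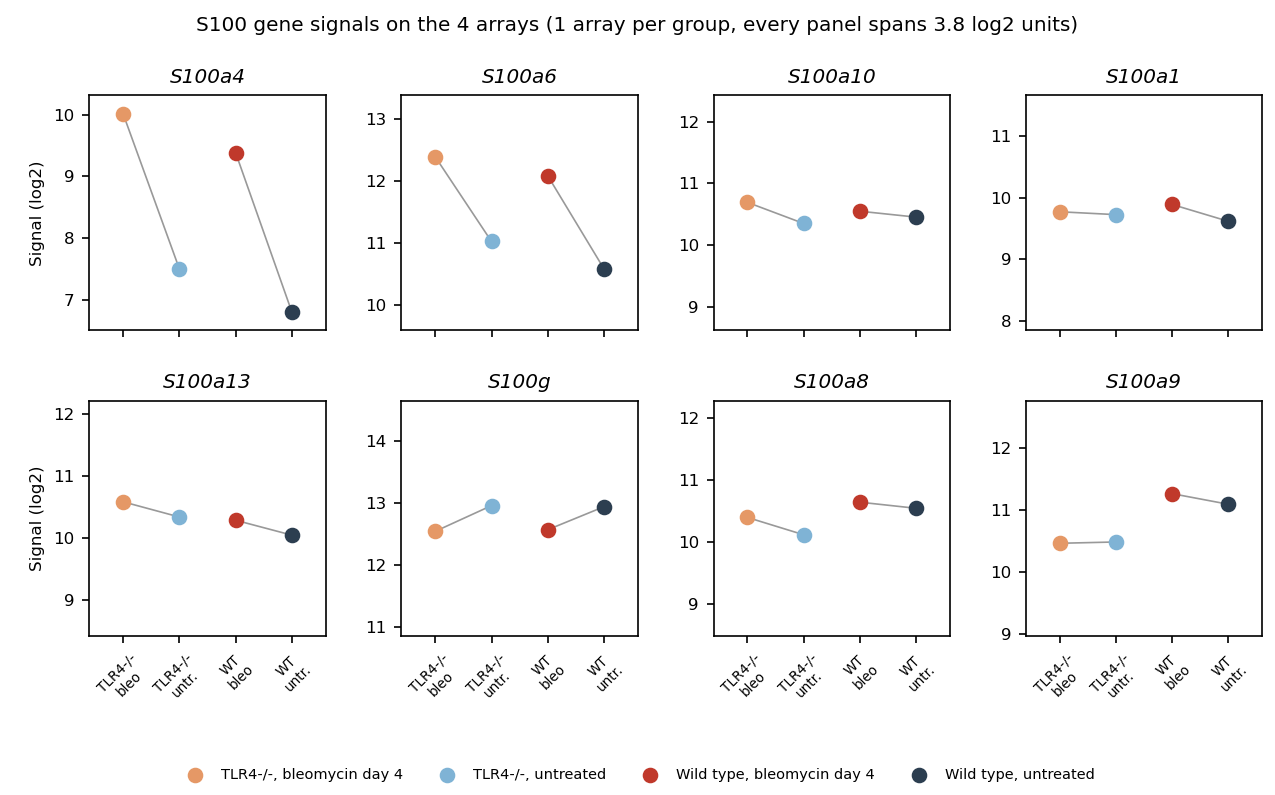
Log2 signal (y axis) of each measured S100 gene on each of the 4 arrays (x axis), 1 point per array, with lines joining the day 4 and untreated arrays of a genotype. In the panels of S100a4 and S100a6 both day 4 points lie above both untreated points, S100g shows the opposite order, and in the S100a9 panel both TLR4-/- points lie below both wild-type points.

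S100a4 encodes a protein that binds nonmuscle myosin and is known for roles in cell migration. It is also commonly used as a marker of fibroblasts and is expressed in macrophages. Its signal was 10.02 in TLR4-/- and 9.38 in wild-type cells after bleomycin, against 7.51 in TLR4-/- and 6.81 in wild-type untreated cells. All 4 arrays thus stood apart from their neighbours in this order by more than the spread, and the treatments did not overlap. The rise was 5.83-fold, a limma estimate of 2.54 ± 0.16 (log2, SE, 2 arrays against 2, adjusted p = 2.58e-06), with 5.70-fold in TLR4-/- and 5.97-fold in wild type. The wild-type untreated signal lay below the filter value, so the size of that fold is uncertain.

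S100a6, or calcyclin, is a protein of proliferating and stressed cells that binds annexins and the ubiquitin-pathway protein Cacybp. Its signal was 12.39 in TLR4-/- and 12.08 in wild-type cells after bleomycin, against 11.02 in TLR4-/- and 10.58 in wild-type untreated cells. Again both day 4 arrays were above both untreated arrays, with every step in the order larger than the spread. The rise was 2.71-fold, or 1.44 ± 0.16 (log2, SE, limma, adjusted p = 0.000106). It was 2.58-fold in TLR4-/- and 2.84-fold in wild type.

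The adjusted p of both genes rose when a day 4 array was left out. Such a fit takes its error from the difference between the untreated genotypes. A lost call therefore cannot be traced to the day 4 signals alone. Without the TLR4-/- day 4 array, limma with treatment alone gave an adjusted p of 0.164 for S100a4 and 0.230 for S100a6, and it called 0 of all genes as risen. Without the wild-type day 4 array the adjusted p was 0.0493 for S100a4 and 0.0954 for S100a6, and 18 of all genes were called as risen. Over all 4 fits that leave out 1 array, the log2 estimates lay between 2.19 and 2.90 for S100a4 and between 1.22 and 1.66 for S100a6, and both calls held without either untreated array.

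At 2-fold, the same 2 members were higher after bleomycin in TLR4-/- cells (2 of 8, against 2.45% of all genes tested) and in wild-type cells (2 of 8, against 2.55%). None was at least 2-fold lower, in TLR4-/- (0 of 8, against 0.89%) or in wild type (0 of 8, against 0.308%). Both day 4 arrays were above both untreated arrays for 4 of the 8 members, S100a4, S100a6, S100a10 and S100a1, as they were for 30.4% of all genes. They were below for 1 member, S100g, as for 21.7% of all genes. The median bleomycin effect over the 8 members was 0.20, beside 0.04 over all genes tested.

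**Figure D2:**
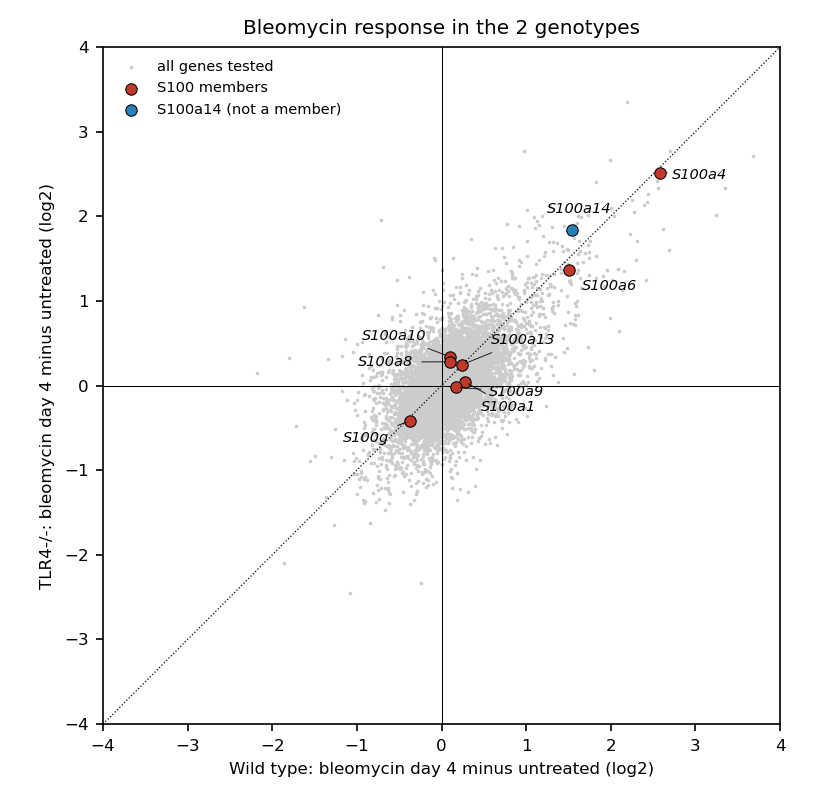
Log2 difference between the day 4 and untreated arrays in TLR4-/- cells (y axis) against the same difference in wild-type cells (x axis), 1 point per gene, with all 9097 genes tested in grey and the dotted line where both are equal. S100a4, S100a6 and S100a14 lie far out along the line and the other measured members lie near the origin.

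S100g encodes the small calbindin that carries calcium through the cytoplasm of intestinal epithelium under control of vitamin D, and it is also expressed in mouse AEC2. Its signal was 12.55 in TLR4-/- and 12.57 in wild-type cells after bleomycin, against 12.96 in TLR4-/- and 12.94 in wild-type untreated cells. Within each treatment the arrays of the genotypes differed by less than the spread. Both day 4 arrays were below both untreated arrays, as for 21.7% of all genes tested. The difference of -0.39 ± 0.16 (log2, SE, limma) did not pass adjustment (unadjusted p = 0.0252, adjusted p = 0.139).

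S100a10 was read by 3 probe sets. Averaged, it was 10.69 in TLR4-/- and 10.55 in wild-type cells after bleomycin, against 10.35 in TLR4-/- and 10.45 in wild-type untreated cells. The estimate was 0.22 ± 0.16 (log2, SE, limma, adjusted p = 0.452). The probe sets did not move alike. Probe sets 1416762_at and 1456642_x_at were higher after bleomycin by 0.50 and 0.41 in TLR4-/- and by 0.30 and 0.12 in wild type. The dim probe set 1439348_at was higher by 0.12 in TLR4-/- and differed by -0.13 in wild type.

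S100a1, a regulator of calcium release in heart muscle, had signals of 9.77 in TLR4-/- and 9.89 in wild-type cells after bleomycin, against 9.72 and 9.61 in untreated TLR4-/- and wild-type cells. Its 2 probe sets moved the same way in each genotype. S100a13, which assists the export of Fgf1 and Il1a, had 10.59 in TLR4-/- and 10.29 in wild-type cells after bleomycin, against 10.34 and 10.05 untreated. The estimates of 0.16 and 0.24 (log2) for S100a1 and S100a13 were not called (limma adjusted p = 0.607 and 0.378).

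**Figure D3:**
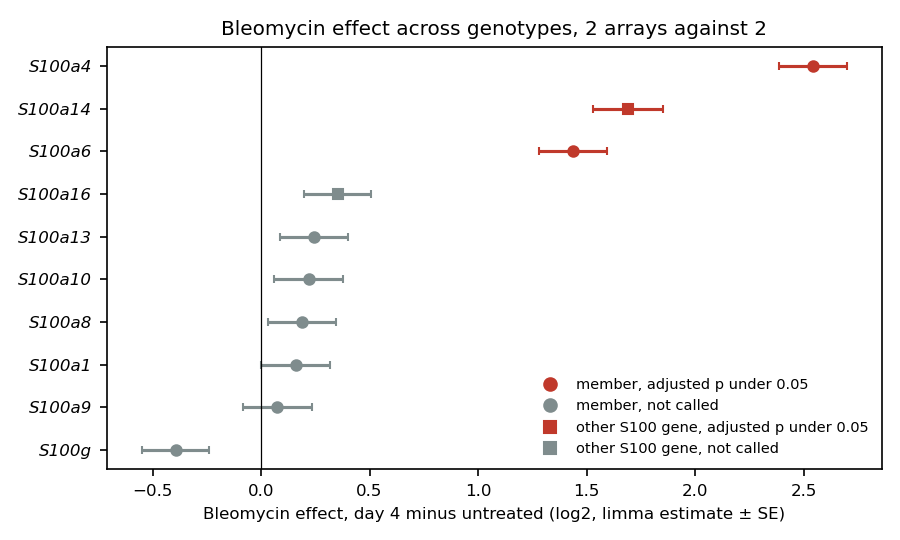
Bleomycin effect (x axis, log2, day 4 minus untreated, limma estimate over both genotypes with its SE as bars, 2 arrays against 2) for the 8 measured members and the 2 other S100 genes past the filter. S100a4 at 2.54, S100a14 at 1.69 and S100a6 at 1.44 passed the threshold, and S100g at -0.39 is the only estimate below 0.

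S100a8 and S100a9, the calprotectin subunits, did not separate by treatment. S100a8 read 10.40 in TLR4-/- and 10.65 in wild-type cells after bleomycin, against 10.12 in TLR4-/- and 10.55 in wild-type untreated cells. S100a9 read 10.46 in TLR4-/- and 11.26 in wild-type cells after bleomycin, against 10.48 in TLR4-/- and 11.09 in wild-type untreated cells. For both genes each TLR4-/- array was below each wild-type array. The bleomycin estimates of 0.19 ± 0.16 for S100a8 and 0.08 ± 0.16 for S100a9 (log2, SE) were not called (limma adjusted p = 0.524 and 0.830).

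Between genotypes, limma called 0 of the 8 members, and 0 of all 9097 genes (0%), with 822 genes at an unadjusted p under 0.05. S100a9 had the lowest estimate among the members, -0.71 ± 0.16 (log2, SE, unadjusted p = 0.000681, limma adjusted p = 0.202). TLR4-/- minus wild type was -0.80 after bleomycin and -0.61 untreated, and the estimate ranked 13 of 9097 from the bottom. For S100a8 the same differences were -0.25 and -0.43, an estimate of -0.34 ± 0.16 (log2, SE, limma adjusted p = 0.558). The only S100a8 probe set, 1419394_s_at, is of a class whose probes match more than 1 transcript.

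S100a4 and S100a6 were higher in TLR4-/- cells under both treatments. S100a4 was higher by 0.63 after bleomycin and 0.70 untreated (limma estimate 0.67 ± 0.16, log2, SE, unadjusted p = 0.000947, adjusted p = 0.212). S100a6 was higher by 0.31 after bleomycin and 0.45 untreated (0.38 ± 0.16, unadjusted p = 0.0316, adjusted p = 0.487). S100a13 was higher by 0.30 and 0.29. S100a1, S100a10 and S100g differed between genotypes by less than the spread on both treatments. No member reached 2-fold between genotypes in either direction. For all genes the shares higher and lower in TLR4-/- at 2-fold were 0.044% and 0.055% after bleomycin and 0.78% and 0.341% untreated.

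**Figure D4:**
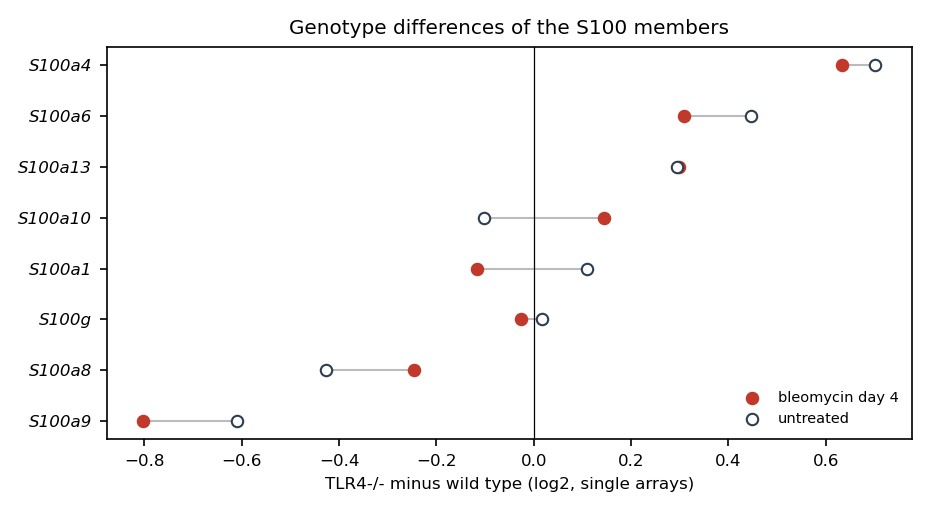
Log2 difference between TLR4-/- and wild-type arrays (x axis) for the 8 measured members, filled points after bleomycin and open points untreated, 1 pair of arrays each. S100a4 is highest on both treatments and S100a9 lowest on both, and no point reaches 1 or -1.

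The responses of the genotypes to bleomycin, which share no array, were close for the members. The TLR4-/- response minus the wild-type response ran from -0.23 (S100a1) to 0.25 (S100a10), and was -0.07 for S100a4 and -0.14 for S100a6. With 1 array per group that difference could not be tested.

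Outside the set, 6 other S100 family genes were on the array. S100a14, an epithelial member of the family, rose as well. It read 9.66 in TLR4-/- and 9.01 in wild-type cells after bleomycin, against 7.82 in TLR4-/- and 7.47 in wild-type untreated cells, a rise of 1.69 ± 0.16 (log2, SE, limma adjusted p = 4.01e-05). Its call ended without either day 4 array, at an adjusted p of 0.181 without TLR4-/- and 0.0527 without wild type. S100a16 had an estimate of 0.35 and was not called (adjusted p = 0.185). S100a3, S100a5, S100a7l2 and S100b did not pass the filter, with signals between 4.55 and 5.52.

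Of the annexins, which many S100 proteins bind, 3 of 8 past the filter rose and 0 fell. Over all genes tested 7.18% rose and 2.53% fell, and these shares stand beside the count of each list below. The median effect of the annexins was 0.45, beside 0.04 over all genes. Anxa1, a regulator of inflammation, rose by 0.98 ± 0.16, Anxa3 by 0.80 ± 0.16 and Anxa8 by 1.17 ± 0.20 (log2, SE, limma adjusted p = 0.00169, 0.00594 and 0.00275). Anxa8 was not called without the filter (adjusted p = 0.082) or with the brightest probe set (0.0544), and it passed the filter only through the day 4 arrays. Without the wild-type day 4 array 0 of 8 annexins were called (adjusted p = 0.107 for Anxa1, 0.18 for Anxa3 and 0.19 for Anxa8), and without the TLR4-/- day 4 array also 0 of 8. Anxa2, the partner of S100a10, had an estimate of 0.09, and no gene of the 5 past the filter in the S100a10 complex list was called (0 of 5). Among 7 receptors of released S100 proteins past the filter, 0 rose and 1 fell, the gene Emb, by 0.61 ± 0.16 (limma adjusted p = 0.0352). That call ended without the filter (adjusted p = 0.117), with the brightest probe set (0.113), with any 1 array other than the untreated TLR4-/- array left out, and with arrays centred on their medians (0.0726). Ager had an estimate of 0.11. Mcam, a receptor of S100a8 and S100a9, was below the filter. It read 7.60 in TLR4-/- and 7.09 in wild-type cells after bleomycin, against 6.26 and 5.82 untreated. Mcam was called as risen when no filter was used. Of the Tlr4 co-receptors and adaptors 1 of 4 past the filter rose, Cd14, by 0.83 ± 0.16 (adjusted p = 0.00555), and not without the filter (0.0533) or without either day 4 array.

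Other cell types express S100 genes, and their markers are set beside these values. Without the TLR4-/- day 4 array no call on any of these lists remained, since 0 of all genes were called as risen or fallen. Without the wild-type day 4 array 5 of 13 leukocyte and macrophage markers, 2 of 11 AEC1 markers and 1 of 10 transitional markers were called. In such pools, more cells of a type and more RNA per cell cannot be told apart. For all 16 leukocyte and macrophage markers on the array, both day 4 arrays were above both untreated arrays. Of the 13 past the filter 12 rose, but 5 of the 13 (Ptprc, Itgax, C1qa, C1qb and C1qc) passed it only through the day 4 arrays, and 4 of these 5 are among the 12. Without the filter 12 of 16 rose, with Adgre1 and Ccr2 called and Cd68 and Marco not. The list's mean log2 signal was 8.91 in TLR4-/- and 8.61 in wild-type cells after bleomycin, against 7.37 and 7.21 untreated. S100a4 and S100a6 both stood in this order. Among the epithelial lists, transitional markers rose in 7 of 10 and AEC1 markers in 4 of 11, where 7.18% of all genes tested rose. Their median effects were 0.91 and 0.34. Without the filter 5 of 10 transitional and 3 of 12 AEC1 markers rose. With the brightest probe set the counts were 5 of 10 and 4 of 10, and after median centring 5 of 10 and 4 of 11. The transitional mean was 10.71 in TLR4-/- and 10.46 in wild-type cells after bleomycin, against 9.74 and 9.31 untreated, again the same order. The AEC1 mean had it too, at 9.82 and 9.76 after bleomycin, against 9.29 and 8.99 untreated. So did S100a14 and the mean of the phagocyte NADPH oxidase genes described below. The order is thus not particular to any of these lists. The fibroblast means did not have it, at 6.80 in TLR4-/- and 6.84 in wild-type cells after bleomycin, against 6.28 and 6.25 untreated. Nor did the mesothelial means, at 7.31 in TLR4-/- and 7.64 in wild-type cells after bleomycin, against 5.78 and 6.82 untreated. Fibroblast markers rose in 1 of 2 past the filter (Col1a1), of 8 on the array, and in 3 of 8 without the filter. Mesothelial markers rose in 3 of 3 past the filter, in 1 of 3 with the brightest probe set and in 2 of 6 without the filter. Among the mesothelial markers, Gpm6a passed the filter only through the day 4 arrays. Of the transitional markers that holds for Cldn4. The part of any of these cells in the rise of S100a4 and S100a6 was not tested.

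For S100a8 and S100a9, the neutrophil list is the closest. Of 11 neutrophil markers on the array 1 passed the filter, the granule gene Ltf. It read 8.31 in TLR4-/- and 8.70 in wild-type cells after bleomycin, against 7.01 and 7.58 untreated. Its genotype estimate, -0.48 ± 0.16 (log2, SE), was not called (limma adjusted p = 0.354). Ltf was thus lower in TLR4-/- cells like S100a9 and, unlike S100a9, rose after bleomycin (1.21 ± 0.16, log2, SE, limma adjusted p = 0.000396), a call that ended without either day 4 array (adjusted p = 0.22 without wild type and 0.23 without TLR4-/-). The other 10 were below the filter, the brightest being Camp at 6.62 to 6.92, Mmp9 at 6.36 to 6.53 and Csf3r at 6.14 to 6.44 across the arrays, and the dimmest Elane at 4.29 to 4.78. The mean log2 signal of the whole list was 5.86 in TLR4-/- and 6.03 in wild-type cells after bleomycin, and 5.85 and 5.88 untreated. The part of neutrophils in the S100a8 and S100a9 values was not tested. The phagocyte NADPH oxidase, to whose membrane calprotectin delivers arachidonic acid, had 3 of 4 genes past the filter that rose, led by Cybb at 1.65 ± 0.16. Ncf4 passed the filter only through the day 4 arrays. Without either day 4 array 0 of 4 were called. With arrays centred on their medians 2 of 4 rose, and with the brightest probe set 1 of 3.

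**Figure D5:**
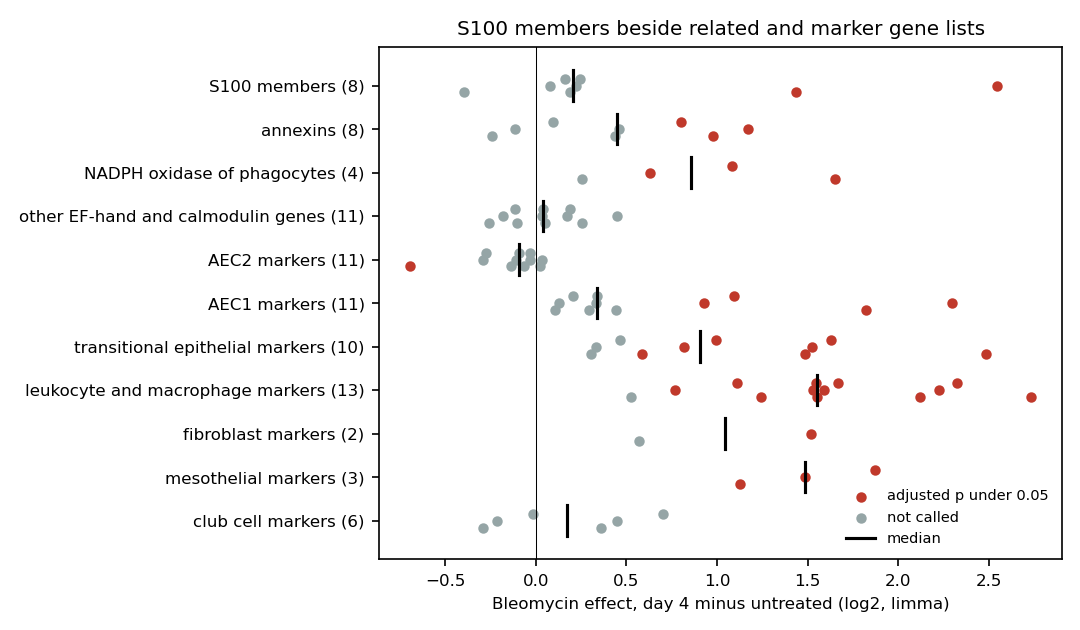
Bleomycin effect (x axis, log2, limma) of each gene past the filter in the S100 set and 10 other gene lists (rows, number of genes in brackets), red where the adjusted p was under 0.05, with the list median as a black bar. The S100 row holds 2 red points far to the right of a cluster near 0, and 12 of 13 leukocyte and macrophage markers are red.

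By Euclidean distance between profiles over the 4 arrays, each minus its own mean, the genes nearest to S100a4 were Cldn4 (0.12), Clec4n (0.18) and C1qb (0.20). They encode a tight junction protein, a lectin of myeloid cells and a complement subunit. Nearest to S100a6 were the cytokine gene Lif (0.02), the metallothionein gene Mt2 (0.08) and the serine synthesis gene Psat1 (0.09). Only genes past the filter were compared, and Cldn4, Clec4n, C1qb and Lif passed it only through the day 4 arrays. Untreated, Clec4n read 6.77 in TLR4-/- and 5.87 in wild-type cells, and Lif 6.81 and 6.37. The filter thus favoured neighbours that were higher at day 4. Nearest to S100a9 were Scaf1 (0.15), Htatsf1 (0.19) and the heat shock gene Hspa1a (0.21), and nearest to S100a8 were Bhlha15, Clcf1 and Ttc21a, at 0.05 to 0.06. Between members, the distance was 1.14 for S100a4 with S100a6 and 0.43 for S100a8 with S100a9. With 4 arrays many genes share such a profile, so these distances are a description.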

How the data were processed

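The authors deposited 1 value per probe set and array, taken here to be log2 signals because of their range. How they were computed and normalized is not given in the sources used here, and no detection calls were used. Array medians lay between 6.93 and 6.98. Per the labels' protocols, total RNA was amplified as cDNA and biotin labelled with commercial kits. Of 45101 probe sets, 34958 had 1 gene symbol in the platform annotation, and 34754 of these took their current symbol through the Entrez identifier (RefSeq table, GRCm38.p6). The remaining probe sets were not used for genes. Probe sets were averaged per gene, and genes with a mean above the median of all (7.05) entered limma 3.58.1 (R 4.3.3), fitted by lmFit and eBayes with treatment plus genotype, and were adjusted by Benjamini-Hochberg, with a threshold of 0.05. The step was tested on simulated data, with noise drawn from limma's own fit and the same change added in both genotypes. That test holds no spread between pools, so it cannot show how the fit performs on these arrays. Single-array differences have a threshold of 2-fold and no test. With 1 pool per group, the p-values carry no spread between pools. The number of arrays limits the precision.

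Named were all members, Tlr4, all other S100 genes on the array, up to 4 called genes of each of 19 lists by size (up to 2 by size where fewer than 2 were called), and the 3 nearest profiles of a member, predicted genes left out. Ager, Anxa2, Mcam and the neutrophil and leukocyte genes beyond that rule were named after their values were seen. The members and lists were chosen with earlier results of these data known. Alternatives were the brightest probe set per gene (highest mean), probe sets fitted separately, no filter, median centring, quantile normalization and leaving out each array.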

Additional observations from a re-analysis of the deposited data

Results flagged for a closer look

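S100a9 went in opposite directions after bleomycin, by -0.02 in TLR4-/- and 0.17 in wild type, a difference of -0.19. Between genotypes, 3 members changed direction with treatment. S100a1 was lower in TLR4-/- by -0.12 at day 4 and higher by 0.11 untreated, a difference of -0.23. S100a10 was higher by 0.14 at day 4 and lower by -0.10 untreated, a difference of 0.25. S100g differed by -0.03 at day 4 and 0.02 untreated, a difference of -0.04. Each rests on single arrays, every one of these steps is smaller than the spread of 0.23, and the differences were not tested.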

How the results depend on the processing

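With all arrays kept, S100a4 and S100a6 were the 2 members called as risen under every alternative run (brightest probe set by mean, no filter, median centring, quantile normalization, probe sets fitted separately), and no member was called as fallen or by genotype. The members' 2-fold counts were the same under the 3 alternatives run for them. Over all genes, 653 rose and 230 fell in the values above. Taking the brightest probe set per gene, 279 rose and 62 fell. With no filter 319 rose and 48 fell, and after median centring 378 rose and 106 fell. Leaving out each array gave 0 to 2 risen members, 0 to 802 risen genes and 0 to 227 fallen genes. Those fits have fewer arrays.

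Signs that turned belonged to uncalled values. After median centring the genotype estimates of S100a1 and S100g were 0.02 and 0.019. Fitted separately, probe set 1417421_at gave 0.010 for S100a1 by genotype, and 1439348_at gave -0.0062 by bleomycin and -0.35 by genotype for S100a10. With the brightest probe set, Rcn2 was 0.011 and Atp2b1 0.12 after bleomycin. With each array left out, genotype alone being fitted to 3 arrays so that treatment is unbalanced, the genotype estimates ran from -0.14 to 0.13 for S100a1, -0.62 to 1.96 for S100a4, -0.38 to 1.13 for S100a6, -0.15 to 0.19 for S100a10 and -0.21 to 0.20 for S100g, while S100a9 stayed below 0 (-0.79 to -0.62). Bleomycin estimates ran from -0.024 to 0.40 for S100a8, -0.33 to 0.48 for S100a9, -0.45 to 0.14 for Atp2b1, -0.29 to 0.12 for Cd79b, -0.21 to 1.62 for Bpifa1, -0.30 to 1.20 for Scgb3a2 and -0.11 to 0.75 for Vwf. The cause was not tested. Of 45 named genes outside the set, 9 lost their call without the filter. No paired analysis was possible because each group was 1 array and the labels gave no replicate numbers.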

Other observations

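Other genes of EF-hand proteins, the calcium-binding fold of the S100 family, were not called after bleomycin. Of 11 such genes past the filter, none of them a calmodulin gene, 0 were called. Over all genes tested 7.18% rose and 2.53% fell. The median effect of the 11 was 0.04, the same as over all genes. The largest were Capn2 at 0.45 and Rcn2 at -0.26 (log2, limma adjusted p = 0.0916 and 0.352). Of the intracellular proteins that S100 proteins bind, 1 of 13 rose, the p53 inhibitor Mdm2, by 1.20 ± 0.18 (limma adjusted p = 0.000957), beside 7.18% of all genes tested. That call ended without the wild-type day 4 array (adjusted p = 0.0701) and without the TLR4-/- day 4 array (0.261). With the brightest probe set 2 of 13 rose. In the vitamin D and calcium transport list, 0 of 3 past the filter were called, and 1 of 3, Vdr, fell without the wild-type untreated array. The receptor gene Vdr read 7.18 in TLR4-/- and 7.50 in wild-type cells after bleomycin, against 8.34 and 7.60 untreated, an estimate of -0.63 ± 0.22 (log2, SE, limma adjusted p = 0.0899). With each array left out the Vdr estimate ran from -0.998 to -0.26. Of the 2 lymphocyte markers past the filter Cd2 rose, by 0.63, but it passed only through the day 4 arrays. Without the filter 0 of 8 lymphocyte markers were called, and 0 also after median centring, with the brightest probe set and with any 1 array other than the untreated TLR4-/- array left out. In 4 of the 8, both day 4 arrays were below both untreated arrays, Cd3d and Cd3g among them. Of 6 club cell markers 0 were called with all arrays, 3 rose without the wild-type untreated array (Aldh1a1, Bpifa1 and Scgb3a2), and 2 fell without the TLR4-/- untreated array. The 1 endothelial marker past the filter was not called, and without the filter 1 of 7 fell. The club cell list had a mean log2 signal of 11.07 in TLR4-/- and 11.08 in wild-type cells after bleomycin, against 10.20 in TLR4-/- and 11.62 in wild-type untreated cells, so the untreated TLR4-/- array was the lowest.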
